A study of Caenorhabditis elegans with 2 samples.

Results

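Where the homeodomain protein CEH-82 (encoded by ceh-82, F45C12.2) bound was examined at 10 genes of the insulin and target of rapamycin (TOR) pathways of Caenorhabditis elegans. The genes were daf-2, age-1, pdk-1, akt-1, akt-2, daf-16, daf-18, daf-15, let-363 and rict-1. They were chosen by symbol, all 10 matched the Ensembl annotation of the WBcel235 assembly (ce11), and they are 10 of its 19973 protein-coding genes. Chromatin immunoprecipitation and sequencing had been done on whole L1 larvae of strain OP212, with the sex given as pooled males and females. The genotype is given as unc-119(ed3) III; ddEx58, and the line carries CEH-82 with GFP-FLAG at its C-terminus. The series is 1 group of 2 biological replicates, so it holds no comparison between conditions. The antibody is labelled ceh-82, and whether it bound the tag or the protein is not stated. The labels speak of an insertion although the name ddEx58 is that of an extrachromosomal array, which some cells of an animal can lose, so how many cells carried the tagged protein is not known. Whole larvae mix all tissues, and a weak peak cannot be told apart from a strong one in few cells.

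In worms, insulin-like peptides act on the receptor DAF-2, which activates the phosphoinositide 3-kinase AGE-1. The lipid it makes recruits PDK-1 and the AKT kinases, which hold the FOXO transcription factor DAF-16 in the cytoplasm, while the phosphatase DAF-18 removes that lipid. The TOR kinase LET-363 works in one complex with the Raptor protein DAF-15 and in another with the Rictor protein RICT-1. The pathways are known for their part in growth, in the arrest of starved L1 larvae, in dauer formation and in lifespan.

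The data are 4 peak lists on ce11. Each replicate had a relaxed list of 30000 peaks. Calling on both replicates pooled gave 20459 relaxed peaks, and 2346 passed the irreproducible discovery rate into the optimal list. Peak signal was computed by the authors, in units that are not stated, and carries no error between replicates. Beside it stands therefore how the matching peak ranked within each replicate, with 1 the strongest. The optimal list was the same set as the 2346 pooled relaxed peaks of highest signal, with 0 peaks above its lowest signal of 30.9 left out. The read depth of the replicates is unknown. No ChIP of an untagged strain was analysed here, so how much of the signal needs CEH-82 was not tested.

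CEH-82 peaks lay in or near 8 of the 10 genes, and at the annotated start of 2 of them. The 8 genes were daf-2, pdk-1, akt-2, daf-16, daf-18, daf-15, let-363 and rict-1, and together they held 12 optimal summits in the gene or within 5 kb upstream. The same window held an optimal summit in 20.3% of all protein-coding genes. It did so in 30.5% of the 4480 protein-coding genes whose length lay in the range of the 10 genes, 3941 to 46333 bp. The 10 genes were long, with a median of 8250 bp, against 2027 bp for all protein-coding genes. The genes in that range of length had a median of 6264.5 bp, so the range does not fully match the 10 genes for length. At least 2 optimal summits lay in the windows of daf-2, pdk-1, daf-16 and let-363. That is 4 of 10 genes beside 2.83% of all protein-coding genes and 5.58% of those in that range of length. Of these genes, daf-2 (46333 bp), daf-16 (26206 bp) and let-363 (17682 bp) were longer than the median of the 10. The windows of the 10 genes held 6.14 optimal summits per 100 kb, against 2.34 per 100 kb over the genome. For the pooled relaxed list the density was 22.5 per 100 kb in these windows and 20.4 per 100 kb over the genome. The genome densities include sequence outside such windows, and the density in the windows of other genes was not counted. No test of these shares or densities was made.

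**Figure D1:**
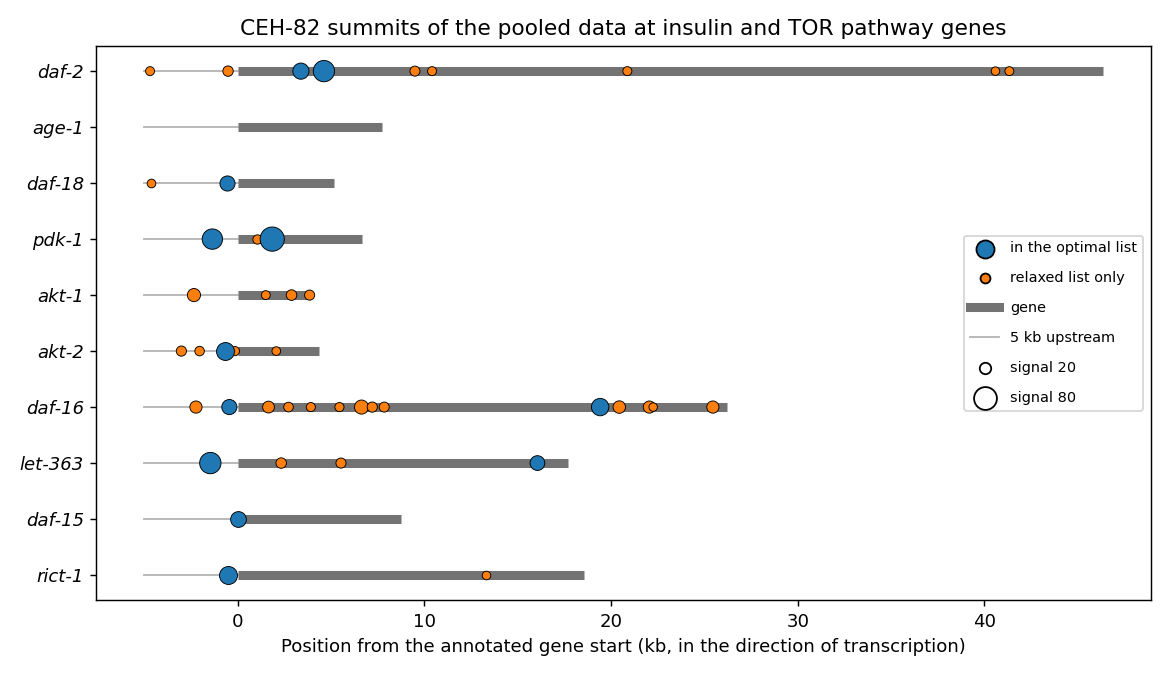
Each row is a gene, drawn from its annotated start (0 kb) in the direction of transcription, with the 5 kb upstream as a thin line. Circles are summits of the pooled relaxed list, with area in proportion to the authors' signal, blue where the peak is also in the optimal list; the 12 blue circles fall on 8 genes, and age-1 has no circle.

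At the stricter distance of 500 bp from the annotated gene start, 2 of the 10 genes had an optimal summit, daf-16 and daf-15, beside 8.18% of all protein-coding genes and 10.9% of those in the range of length of the 10. Of the 12 summits, 5 lay within 500 bp of some protein-coding start (41.7%), against 53.1% of all optimal summits. Just outside that distance lay the summits of rict-1 (516 bp upstream), daf-18 (574 bp) and akt-2 (705 bp). Those 3 were the only members with an optimal summit 501 to 1000 bp upstream, a position found in 1.89% of all protein-coding genes and 3.19% of those in the range of length. The settings were chosen with earlier results of these data known, so these shares are a description and no evidence of an excess. The rict-1 and daf-18 summits lay nearer to the starts of gfm-1 (157 bp) and garr-1 (417 bp). The median distance from a gene start to the nearest optimal summit, on either side, was 1032 bp for the 10 genes and 16198 bp for all protein-coding genes.

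**Figure D2:**
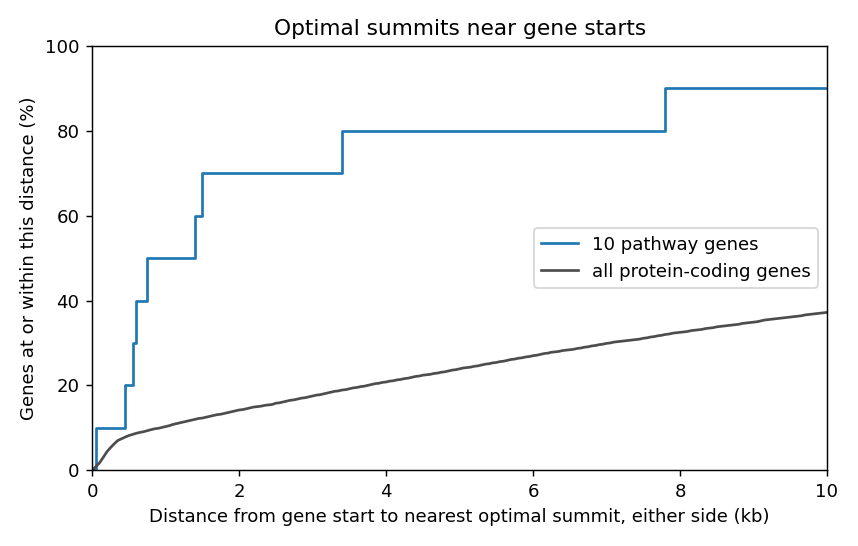
The share of genes (vertical axis, %) whose start lies at or within the given distance (horizontal axis, kb, either side) of an optimal summit, in steps of 50 bp. The line of the 10 pathway genes reaches 20% at 500 bp and 50% at 1 kb, and that of all protein-coding genes 8.18% and 10.3%.

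The receptor gene daf-2 carried its peaks inside the gene and not at its annotated start. The gene (WBGene00000898) spans chromosome III, 2994514 to 3040846, on the minus strand. One optimal summit at 3036228 lay 4618 bp downstream of the start with a signal of 69.5, and ranked 1887 in replicate 1 and 572 in replicate 2. The other, at 3037462, lay 3384 bp downstream with a signal of 40.2, and ranked 2720 in replicate 1 and 1443 in replicate 2. Both ranked higher in replicate 2 than in replicate 1. Both fell in intron 1 of the longest transcript (Y55D5A.5c.1), an intron of 11981 bp, and 7428 and 8662 bp upstream of the start of transcript Y55D5A.5a.1. They also lay within linc-143, an annotated long intergenic non-coding RNA on the same strand (3035541 to 3037543). The start of linc-143 was 81 bp upstream of the weaker summit. Upstream of daf-2 the strongest pooled relaxed summit, 519 bp from the start, had a signal of 16.6 and was not in the optimal list. The window around the weaker daf-2 summit is shown for the repeat at one end of it. Its longest alternating run was 27 bp inside the window and reached the last base, so the repeat may be longer. The window spans plus or minus 50 bp on the strand of the gene (WBcel235), with GAGAGA or its reverse complement in capitals.
daf-2, chrIII:3037412-3037512, minus strand: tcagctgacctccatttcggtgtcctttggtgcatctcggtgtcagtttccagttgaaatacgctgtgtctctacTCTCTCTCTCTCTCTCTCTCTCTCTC

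The enzymes that act on the lipid messenger differed. The gene of the kinase, age-1 (WBGene00000090, chromosome II, 11519328 to 11527054, minus strand), had no optimal and no pooled relaxed summit in its window. It was also without a summit in replicate 1. Replicate 2 had 2 summits, 3601 and 4187 bp downstream of the start, with ranks of 18563 and 21665. The nearest optimal summit was 7771 bp upstream and nearer to the start of Y62F5A.12. The gene of the phosphatase, daf-18 (WBGene00000913, chromosome IV, 420011 to 425177, minus strand), had 1 optimal summit at 425751, 574 bp upstream. Its signal was 35.03, near the lowest of the optimal list, and it ranked 2260 in both replicates. The summit lay 417 bp upstream of garr-1, a gene on the opposite strand whose start is 991 bp from that of daf-18, so the peak lies between divergent genes and is nearer to garr-1.

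The gene of the kinase PDK-1 had the strongest peak of the set. It lies on X (WBGene00003965, 1321344 to 1327986, plus strand). The summit at 1323192, 1848 bp downstream of the start in intron 2, had a signal of 90.0 and stood at rank 553 of the 2346 optimal peaks, the top 23.6%. It ranked 387 in replicate 1 and 1033 in replicate 2. A further optimal summit at 1319986, 1358 bp upstream and outside protein-coding genes, had a signal of 63.6. It ranked 1059 in replicate 1 and 1158 in replicate 2, so both pdk-1 peaks were among the 2346 strongest of each replicate. No other protein-coding start lay within 5 kb of these summits. The sequences at the 2 summits differed in base composition. The upstream window was 71.3% G or C, a value reached by 0.171% of all optimal windows, and the intronic window was 40.6% G or C, reached by 87.7% of them. They are printed to show that contrast, on the strand of the gene.
pdk-1 upstream, chrX:1319936-1320036, plus strand: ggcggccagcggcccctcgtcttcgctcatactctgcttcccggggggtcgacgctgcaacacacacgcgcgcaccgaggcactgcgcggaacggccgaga
pdk-1 intron, chrX:1323142-1323242, plus strand: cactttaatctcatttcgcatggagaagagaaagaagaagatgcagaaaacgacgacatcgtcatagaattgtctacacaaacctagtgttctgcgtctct

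Of the AKT kinase genes, akt-2 had an optimal peak and akt-1 did not. The akt-2 gene (WBGene00000103, X, 14147700 to 14152070, plus strand) had its optimal summit at 14146995, 705 bp upstream, with a signal of 49.1. It ranked 1153 in replicate 1 and 1405 in replicate 2. No protein-coding start other than that of akt-2 lay within 5 kb of it. At akt-1 (WBGene00000102, chromosome V, 10248905 to 10252845, plus strand) the strongest pooled summit was 2346 bp upstream with a signal of 26.5. It ranked 4112 in replicate 1 and 2380 in replicate 2, both outside the 2346 strongest. The nearest optimal summit was 25031 bp downstream of the akt-1 start. The akt-1 window still held 4 pooled relaxed summits, and that of akt-2 held 5. The window around the akt-2 summit is printed for its GAGAGA matches (reverse complement in capitals).
akt-2, chrX:14146945-14147045, plus strand: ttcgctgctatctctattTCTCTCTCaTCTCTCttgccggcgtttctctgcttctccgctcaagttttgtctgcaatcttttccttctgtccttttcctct

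Among the partners of the TOR kinase, daf-15 was the member with a summit closest to its start. The gene (WBGene00000911, chromosome IV, 9386208 to 9394979, plus strand) had 1 optimal summit, at 9386226, 18 bp downstream of the start, with a signal of 38.1. It ranked 1327 in replicate 1 and 3229 in replicate 2, so it was among the 2346 strongest peaks of replicate 1 only. The summit fell in a coding exon of transcript C10C5.6c.1, whose annotated start is its start codon. The starts of the other transcripts lay 224 or 231 bp downstream of the summit. This was also the only pooled relaxed summit in the daf-15 window. The window is shown because it spans the annotated start, with the start codon in capitals at bases 33 to 35.
daf-15, chrIV:9386176-9386276, plus strand: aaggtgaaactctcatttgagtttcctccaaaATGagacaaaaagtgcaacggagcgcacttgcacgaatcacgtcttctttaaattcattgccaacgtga

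The Rictor gene rict-1 (WBGene00009245, chromosome II, 13098239 to 13116810, minus strand) had 1 optimal summit, at 13117326, with a signal of 49.4. It ranked 3133 in replicate 1 and 1104 in replicate 2. The summit lay 516 bp upstream of rict-1 and 157 bp upstream of gfm-1, which encodes a mitochondrial elongation factor and runs in the opposite direction from a start 673 bp away. The TOR kinase gene itself, let-363 (WBGene00002583, chromosome I, 5245743 to 5263424, plus strand), had its stronger optimal summit at 5244275, 1468 bp upstream, with a signal of 70.0. It ranked 596 in replicate 1 and 1350 in replicate 2. That summit was 8 bp upstream of the start of mrpl-47, a mitochondrial ribosomal protein gene on the same strand that ends before let-363 begins. The other summit, at 5261800 in intron 29, had a signal of 33.4, near the lowest of the optimal list. It ranked 2962 in replicate 2, and its only overlapping peak in replicate 1, at rank 1569, had a summit 151 bp away. It lay 16057 bp downstream of the let-363 start and 1894 bp upstream of that of vep-1, a gene on the same strand. So the peaks of rict-1 and daf-18 and both peaks of let-363 lay nearer to the start of a neighbouring gene, and which gene they belong to cannot be told apart from these data.

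The FOXO gene daf-16 had 2 optimal summits, as many as daf-2, pdk-1 and let-363, and the most summits of the 10 genes in the relaxed lists. Its window held 14 in the pooled list, 21 in replicate 1 and 19 in replicate 2. Per 10 kb of window the pooled list had 4.49 at daf-16, against 5.34 at akt-2, the highest of the 10. The gene spans chromosome I, 10750498 to 10776703 (WBGene00000912, plus strand), with 7 annotated transcript starts over 22501 bp. One optimal summit, at 10750049, lay 449 bp upstream of the gene start, with a signal of 35.03. It ranked 1565 in replicate 1 and 2475 in replicate 2. It also fell within H36N01.1 and H36N01.4, short non-coding RNA genes annotated on opposite strands. The stronger summit was intronic, at 10769915, with a signal of 46.6, and ranked 2549 in replicate 1 and 1006 in replicate 2. It lay 19417 bp downstream of the gene start and 1593 bp upstream of the start of transcript R13H8.1a.1. Counting only gene starts, the nearest was that of gpx-8, 12975 bp away. Neither summit was among the 2346 strongest peaks of both replicates. A further 12 pooled relaxed summits in the daf-16 window were outside the optimal list. The highest of them, 6630 bp downstream of the gene start, had a signal of 30.3 and was just outside the list, with ranks of 2409 in replicate 1 and 2424 in replicate 2. Others lay 569 bp upstream of the R13H8.1a.1 start (signal 23.9) and 450 bp upstream of the R13H8.1e.1 start (signal 22.7).

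**Figure D3:**
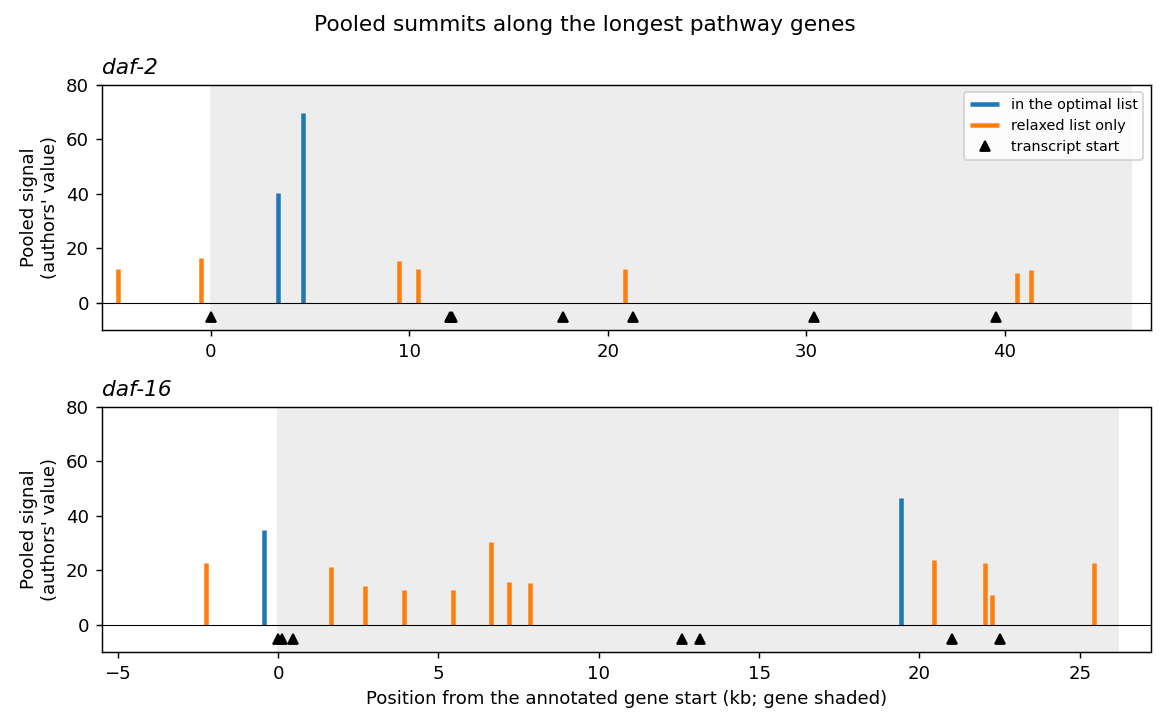
Lines give the authors' signal (vertical axis) of each pooled relaxed summit along daf-2 and daf-16 against its position from the annotated gene start (horizontal axis, kb), blue where the peak is also in the optimal list. Triangles mark annotated transcript starts; the daf-2 optimal summits, at signals of 69.5 and 40.2, lie between the starts at 0 and 12.05 kb, and 1 of the 2 daf-16 summits lies near the 5' end of the gene.

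As a set, the 12 summits had a lower median signal and a smaller share of peaks strong in both replicates than the optimal list as a whole, with no test made. Their signal ran from 33.4 to 90.0 with a median of 47.8, against a median of 55.4 for all 2346 optimal peaks, and 4 of the 12 were above that median. Among the 2346 strongest peaks of each replicate were 9 of the 12 in replicate 1 and 9 in replicate 2, with 6 in both. Of all 2346 optimal peaks, 2015 were among the strongest of replicate 1, 2060 among those of replicate 2, and 75.1% among those of both. The 6 summits strong in both were those of pdk-1 (both), daf-2 (the stronger), akt-2, daf-18 and let-363 (the upstream one). The ranks in the 2 replicates differed by a median of 2.07-fold for the 12 summits and 1.48-fold for all optimal peaks matched in both lists. The optimal list was itself derived from these replicates, so these values describe it and are no independent check. For the 8 genes with an optimal summit, the strongest in the window had a median signal of 49.2, against 62.4 for all 4059 protein-coding genes with one.

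**Figure D4:**
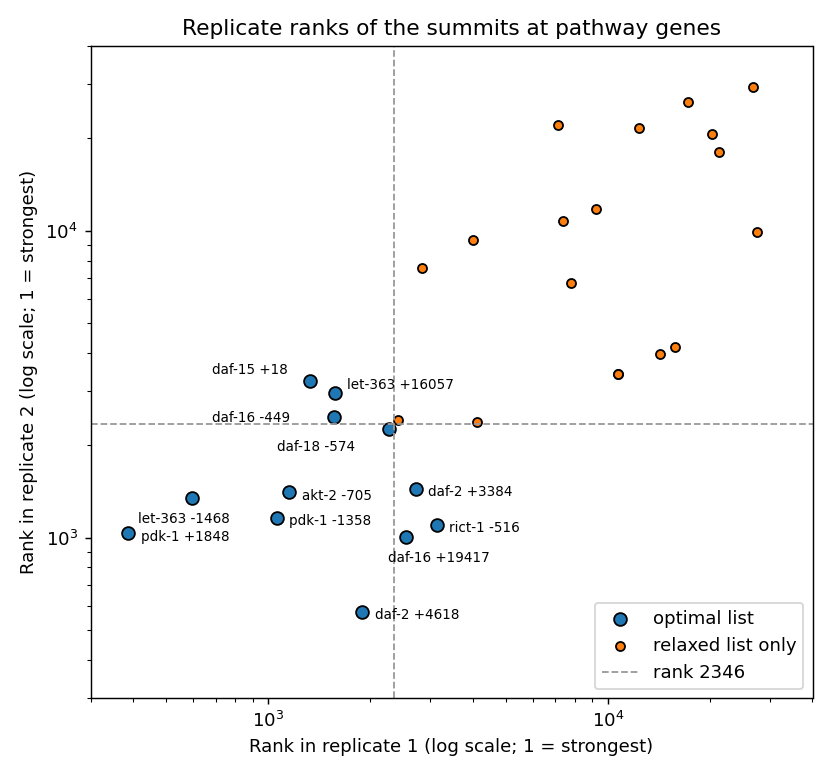
Rank of the overlapping peak in replicate 1 (horizontal axis, log scale) and replicate 2 (vertical axis, log scale) for the 12 optimal summits, labelled by gene and position in bp from the gene start, and for the 18 relaxed-only summits matched in both (a pair of them shares 1 point). Dashed lines mark rank 2346; 6 optimal summits and none of the relaxed-only summits lie below both lines.

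The whole pooled relaxed list had 44 summits in the windows of the 10 genes. They lay in 9 of the 10 genes, with daf-15 among them through its optimal summit. The share was 71.9% of all protein-coding genes and 89.4% of those in the range of length, so 9 of 10 is near the latter. Summits outside the optimal list lay in the windows of all the genes but age-1 and daf-15. The share of all genes with such a summit was not counted, so nothing is read from it. Of the 44 summits, 12 were the optimal ones. The other 32 had signals from 11.0 to 30.3 with a median of 14.8, close to the median of 14.2 over all pooled relaxed peaks. Both replicate lists held a peak overlapping 18 of the 32, 1 list held one for 13, and neither did for 1. None of the 32 was among the 2346 strongest peaks of both replicates. Of the 44 summits, 3, at akt-2, daf-15 and daf-16, lay within 500 bp of the gene start. Within 500 bp of any annotated transcript start lay 6. Neither the replicate matches nor these positions were counted for all pooled relaxed peaks, so no background stands beside them.

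Positions in genes and short sequences were compared over the 12 summits. Outside protein-coding genes lay 6 of them, in introns 5 and in a coding exon 1, that of daf-15. The share of all optimal summits in each of these places was not counted. The member was the gene with the nearest protein-coding start for 7 of the 12, a count not made for other genes. The median distance to the nearest protein-coding start was 1032 bp for these summits and 419 bp for all optimal summits. In the 50 bp on either side of the summit, on both strands, the repeat GAGAGA occurred at 4 of the 12 (33.3%), against 30.3% of all optimal summits. Those 4 were both daf-2 summits, akt-2 and the intronic summit of daf-16. The motif GTAAACA, known as the DAF-16 binding element, occurred at 1 of the 12, the upstream summit of daf-16, and at 1.53% of all optimal summits. The homeodomain core TAATTA occurred at 0 of the 12 and at 1.02% of all optimal summits. Likewise TGATAA (1.88% of all) and CACGTG (3.28% of all) occurred at 0 of the 12. GC content in these windows had a median of 44.1% for the 12 and 48.5% for all optimal summits. Matches to different motifs did not overlap at the 12 summits, and a match or its absence describes only these letters in this window.

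Other genes of the pathways were grouped by role, in lists chosen with earlier results of these data known. Within 500 bp of their start, 12 of 98 matched genes had an optimal summit (12.2%), beside the 8.18% of all protein-coding genes. Regulators and cofactors of DAF-16 had the highest share of the 5 lists, with 6 of 13 genes (46.2%). The strongest were at the RNA helicase gene hel-1 (signal 77.3, ranks 924 in replicate 1 and 638 in replicate 2), the 14-3-3 gene par-5 (signal 54.4, ranks 868 and 1714), the SWI/SNF subunit gene swsn-1 (signal 48.9, ranks 1779 and 1137) and the sirtuin gene sir-2.1 (signal 37.7, ranks 2344 and 1476). The par-5 peak was shared with M117.3. A further optimal summit, 796 bp upstream of par-5 (signal 44.4), lay nearer to M117.3. Also counted were prmt-1 and ftt-2. The prmt-1 peak (signal 35.5, ranks 2430 and 1768) was shared with cdkr-3 and lay nearer to it. The ftt-2 peak within 500 bp (signal 33.2, rank 1300 in replicate 1) had no matching peak in replicate 2. A stronger optimal summit lay 1019 bp upstream of ftt-2 (signal 68.3, ranks 956 in replicate 1 and 893 in replicate 2). Other TOR pathway genes had 5 of 18 (27.8%). The strongest were at the small GTPase gene rheb-1 (signal 87.9, ranks 594 in replicate 1 and 587 in replicate 2), which activates TOR and shares its peak with spk-1, and at ife-2 (signal 48.1), an eIF4E gene. They were followed by the Rag GTPase gene ragc-1 (signal 40.5, shared with Y24F12A.1) and hlh-30 (signal 39.5), the TFEB homologue. Of 18 DAF-16 target genes, 1 (5.56%) had an optimal summit within 500 bp of the start. That was the small heat shock protein gene sip-1 (signal 100.7), whose peak was shared with sly-1 and lay nearer to it. None of the 39 insulin-like ligand genes and none of the 10 other insulin signalling genes had an optimal summit within 500 bp of the start.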

How the data were processed

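Peak lists on ce11 were used, and those on ce10 were not used here. Per the deposited file descriptions, relaxed lists were made from each replicate and from both together with a control, and the optimal list came from the irreproducible discovery rate. The unit of each peak is the signal value the authors deposited, whose scale, peak caller and threshold are not given in the sources used here. Every peak lay within the 6 nuclear chromosomes of WBcel235. Genes came from Ensembl release 115. A summit was assigned to a gene when inside it or within 5 kb upstream, and called at the start within 500 bp on either side. Replicate peaks were matched by 1 bp of overlap, taking the best rank by signal. Motifs were sought in the WBcel235 sequence (RefSeq). Counting was tested on planted summits. No significance test was made, since there is 1 group of 2 replicates and the genes are a chosen list. The genes, lists and settings were chosen with earlier results of these data known. The rule for named genes gave the 10, neighbours with a start within 500 bp of their summits, and up to 4 bound genes per list. The other genes named were chosen after their values were seen. They are those nearest to a summit, those that share a peak with a listed gene, and ins-39, pptr-1, aak-2, prmt-1 and ftt-2. One listed gene, dod-8, did not match the annotation. Settings tried are given at the end. Python 3.11.15 with pandas 2.3.3 and numpy 2.4.6 was used.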

Additional observations from a re-analysis of the deposited data

How the results depend on the processing

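The count of genes with a summit near the start was small and depended on the distance. It was 1 of 10 at 250 bp, 5 at 1000 bp, 1 with upstream positions only, 4 with the peak interval in place of the summit and 0 in the stronger part of the optimal list (its top 1173). It ranged from 0 to 2 when a replicate was left out, with 0 without replicate 1. Neither daf-16 nor daf-15 thus had one of the 2346 strongest peaks of replicate 2 within 500 bp of its start. The background share of 8.18% became 5.33% at 250 bp, 10.3% at 1000 bp, 7.53% with upstream positions only, 8.87% with the peak interval and 4.7% in the stronger part of the list, and ranged from 7.86 to 8.06% with a replicate left out. The count of genes with a summit in the gene or within 5 kb upstream was 3 of 10 in the stronger part of the list, beside 11.6% of all protein-coding genes. It was 5 of 10 when a summit counted only for its nearest start, which dropped daf-18, let-363 and rict-1, beside 9.66% of all. It was 7 without replicate 1, which lost daf-15, and 7 without replicate 2, which lost rict-1, each beside 20% of all. With the other settings the counts stayed within 1.5 times. The strongest pooled peaks are the optimal list, so that setting changed nothing by construction. Requiring 50% of the peak to be covered left 6 summits strong in both replicates. No paired analysis was possible because the series is 1 group. The unknown depth limits what a missing peak says.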

Other observations

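In the wider window, 24 of the 98 matched genes of the 5 lists had an optimal summit (24.5%), beside 20.3% of all protein-coding genes. Those described here held peaks away from their starts and were picked after their values were seen. The insulin-like ligand gene ins-39 on X had an optimal summit 634 bp upstream with a signal of 363, ranked 24 in replicate 1 and 13 in replicate 2, higher than any of the 12 summits above. It was 1 of 2 ligand genes of 39 with an optimal summit in the gene or within 5 kb upstream, a share of 5.13% beside 20.3% of all protein-coding genes. The PP2A regulatory subunit gene pptr-1 had one 1410 bp upstream with a signal of 106, ranked 389 in replicate 1 and 352 in replicate 2. The AMP-activated kinase gene aak-2 had one 949 bp downstream of its start with a signal of 103, ranked 213 in replicate 1 and 932 in replicate 2. At hlh-30, 5 optimal summits lay in the window, with signals from 33.2 to 56.5. Of these, 1 was 126 bp upstream of the start and 4 between 6581 and 14827 bp downstream. The farthest lay nearest to the start of W02C12.2. The weakest, 10682 bp downstream, ranked 4062 in replicate 1 and 1202 in replicate 2. The share of all protein-coding genes with as many was not counted, and 2.83% held at least 2.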
